A study of Homo sapiens with 18 samples.

Results

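The cadherin genes described here are 7 classical cadherins, CDH1, CDH2, CDH4, CDH6, CDH10, CDH11 and CDH15, and CDH13, which is held in the membrane by a GPI anchor. These 8 genes were picked from 35579 genes with a matched transcript, with their estimated counts by group and guide already in view. Their levels and fold changes between groups are therefore a description and support nothing. Of the 8 genes, 6 passed the filter on low counts and CDH10 and CDH15 did not.

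The libraries hold poly(A) RNA of hiF-T cells, a human fibroblast-like line made from BJ skin fibroblasts in which telomerase (hTERT) can be induced. The 4 groups carried CRISPR guides labelled as knockdown of CDKN1A (guides 1 and 2, 4 libraries), KDM1A (guides 2 and 3, 4 libraries) or SPP1 (guides 1, 2 and 3, 6 libraries), or control guides labelled as backbone (guides 1 and 2, 4 libraries). All 18 libraries come from this 1 line, labelled WT in every group, with biological replicates 1 and 2 for each guide. CDKN1A encodes the cell cycle inhibitor p21, KDM1A a histone demethylase and SPP1 the secreted protein osteopontin. The labels say neither how the guides lower the mRNA nor whether the replicates are separate cultures, so p-values measure only the spread between these libraries.

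Classical cadherins are single-pass membrane proteins whose extracellular repeats bind the same or a related cadherin on a neighbouring cell in the presence of calcium. Their cytoplasmic tails bind p120-catenin and beta-catenin or plakoglobin, and alpha-catenin links these to actin. Fibroblasts typically carry N-cadherin (CDH2) and cadherin-11 (CDH11), whereas E-cadherin (CDH1) is the cadherin of epithelia. CDH13, also called T-cadherin, lacks the transmembrane segment and the tail, and binds adiponectin and low-density lipoprotein.

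Each library held between 11907197 and 17016094 estimated counts. Of 10 fibroblast markers, 9 averaged at least 1 CPM (a gene's counts scaled to the size of the library by TMM), and THY1 did not, at 0 to 0.454 CPM over the groups. The summed fibroblast markers were at 27100 to 29900 CPM in CDKN1A, 27000 to 33400 in KDM1A, 26300 to 32400 in SPP1 and 30900 to 33100 in control libraries. Of 8 keratinocyte markers, KRT10 and KRT14 averaged at least 1 CPM, KRT1 was at 0 in every library and KRT5 was at 0 in all groups but CDKN1A, where it reached 0.0631 CPM. Of 6 endothelial markers only TEK did, at 52.4 to 71.7 CPM in SPP1 and 77.2 to 88.2 CPM in control libraries. No melanocyte, leukocyte or skeletal muscle marker averaged 1 CPM. The pluripotency genes POU5F1, NANOG and SOX2, of 6 listed, lay between 0.25 and 5.35 CPM.

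Some markers stood apart with the KDM1A guides, and COL3A1 was above every control library with the SPP1 guides too. NES, 1 of 6 Schwann and neural markers, was at 0.379 to 0.988 CPM in CDKN1A, 2.85 to 3.89 in KDM1A, 0.136 to 0.759 in SPP1 and 0.155 to 0.627 CPM in control libraries. The summed neural markers, mostly SOX2 and NES, were at 4.03 to 5.77 CPM in CDKN1A, 5.94 to 7.93 in KDM1A, 3.31 to 6.09 in SPP1 and 2.64 to 4.23 in control libraries. The collagen gene COL3A1, a fibroblast marker, was at 7.0 to 11.7 CPM in CDKN1A, 28.4 to 70.2 in KDM1A, 10.8 to 16.9 in SPP1 and 5.74 to 7.61 in control libraries. Whether a shift in cell make-up had a part in any cadherin difference was not tested, and in bulk RNA fewer cells with a transcript and less of it per cell cannot be told apart.

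The mRNA of each target was lower with its own guides, by different amounts. Relative to control libraries, guide 1 left 46.3% of the CDKN1A mRNA and guide 2 left 70.6%. For KDM1A, guide 2 left 62.6% and guide 3 left 43.4%. For SPP1, guides 1, 2 and 3 left 39.6%, 79.6% and 66.8%, and only guide 1 passed the test (edgeR quasi-likelihood F test with Benjamini-Hochberg adjustment, adjusted p = 0.00827, against 0.443 and 0.144). Over its 6 libraries the SPP1 group missed it too (log2 fold change -0.70 ± 0.22 SE, adjusted p = 0.0695), and without replicate 1 of guide 3 it passed (-0.89, adjusted p = 0.0248). The CDKN1A group, at -0.78 ± 0.13 (adjusted p = 0.00394), missed it without control guide 1 (-0.66, adjusted p = 0.0834). It missed it in 2 of 19 alternatives, at adjusted p up to 0.319.

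CDH6 and CDH13 were each counted mainly on a pair of transcripts, and their sequences show where the forms differ. CDH6-205 runs past the end of an exon that CDH6-201 splices, into 110 bases that end in its own stop codon. It therefore lacks the last coding exon, which in CDH6-201 encodes the end of the membrane-spanning segment and the catenin-binding cytoplasmic tail. CDH6-205 codes for other residues in their place. The lines below give 30 shared bases in lower case (GRCh38, plus strand, chr5:31317895-31317924) and then, in capitals, the bases that differ, from chr5:31317925-31318034 for CDH6-205 and from the first 110 bases of the next exon used, chr5:31322818-31322927, for CDH6-201.
CDH6-205: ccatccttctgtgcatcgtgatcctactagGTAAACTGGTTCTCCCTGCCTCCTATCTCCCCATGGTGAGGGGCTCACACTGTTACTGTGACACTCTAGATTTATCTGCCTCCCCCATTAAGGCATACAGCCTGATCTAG
CDH6-201: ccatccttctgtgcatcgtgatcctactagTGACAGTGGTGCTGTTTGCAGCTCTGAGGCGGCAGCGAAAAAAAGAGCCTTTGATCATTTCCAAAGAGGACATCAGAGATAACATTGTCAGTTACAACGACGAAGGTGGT
CDH13-209 skips an exon of 106 bases that CDH13-201 holds (chr16:82639360-82639465, plus strand), shown in capitals between 15 bases of each neighbouring exon, and has a last exon of 5618 bases against 354 in CDH13-201.
CDH13-201: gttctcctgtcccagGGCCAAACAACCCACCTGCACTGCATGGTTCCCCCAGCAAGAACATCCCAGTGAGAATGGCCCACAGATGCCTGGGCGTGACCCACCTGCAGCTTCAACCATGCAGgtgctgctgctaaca
CDH13-209: gttctcctgtcccaggtgctgctgctaaca
The sequences are those of the GENCODE 29 transcripts.

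Per length of transcript, the cadherins of these cells were CDH11 and CDH2. CDH11, on the minus strand of chromosome 16 (64943753 to 65126112, GRCh38), averaged 161 TPM, the length-scaled unit the authors deposited, over the 18 libraries (132 to 208). CDH2, on the minus strand of chromosome 18 (27950966 to 28177446), averaged 140 TPM (83.2 to 195). CDH11 was above CDH2 in 15 of 18 libraries, and their ranges overlapped, so the order of the pair is not fixed. In counts the order was the reverse in every library, with means of 349 CPM for CDH2 and 211 CPM for CDH11. The TPM of CDH11 leans on shorter forms. CDH11-203 held 5.05% of the gene's counts and a median 26.0% of its TPM, and CDH11-201 36.4% and 11.4%. Together with the 3 genes that follow, CDH11 and CDH2 cover nearly all cadherin mRNA of this set.

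CDH13 (chromosome 16, 82626803 to 83800640, plus strand) averaged 31.9 TPM, CDH6 (chromosome 5, 31193750 to 31329146, plus strand) 21.3 TPM and CDH4 (chromosome 20, 61252426 to 61940617, plus strand) 15.4 TPM. CDH2 was above CDH13 in all 18 libraries, CDH13 above CDH6 in 17 and CDH6 above CDH4 in 16. By counts CDH4 was above CDH6, at means of 63.4 and 57.5 CPM. The levels of CDH13 (23.4 to 50.3 TPM), CDH6 (12.2 to 31.9 TPM) and CDH4 (11.6 to 22.4 TPM) overlapped across libraries. Of the summed TPM of the 8 genes, CDH11 held 39.6 to 50.1%, CDH2 29.9 to 44.3%, CDH13 5.98 to 12.4%, CDH6 4.22 to 6.78% and CDH4 3.3 to 4.87%.

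The other 3 genes were at the edge of detection. CDH1 (chromosome 16, 68737225 to 68835548) averaged 1.51 TPM from 7.52 to 26.5 counts per library. Of its 231 summed counts, 60.5% fell on CDH1-206, annotated as a processed transcript, and 29.4% on CDH1-210, annotated for nonsense-mediated decay, whereas the 3.12% on CDH1-201 code for the full protein. CDH15 (M-cadherin, known from myoblasts; chromosome 16, 89171767 to 89195492) held 77.7 counts in all 18 libraries, and CDH10 (a type II cadherin known mainly from the brain; chromosome 5, 24487100 to 24644978, minus strand) held 48.5, of which 89.5% fell on a processed transcript.

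CDH13 was higher in every CDKN1A knockdown library than in any other library. It had 91.2 and 86.5 CPM with CDKN1A guide 1 and 90.7 and 91.7 CPM with guide 2, against 54.2 and 56.4 CPM with control guide 1 and 49.5 and 52.4 CPM with control guide 2. The groups did not overlap, and the mean was 90.0 ± 2.38 CPM with CDKN1A guides and 53.1 ± 2.94 CPM with control guides (SD, n = 4 each). The log2 fold change was 0.76 ± 0.05 (SE), a 1.69-fold higher level, and it was 0.74 ± 0.05 with guide 1 and 0.78 ± 0.05 with guide 2, although guide 1 left less CDKN1A mRNA.

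With the KDM1A guides CDH13 stood below every control library. It had 42.8 and 43.6 CPM with guide 2 and 44.5 and 42.3 CPM with guide 3. Both guides gave nearly the same log2 fold change, -0.30 ± 0.06 and -0.29 ± 0.06 (SE). In the 6 SPP1 libraries CDH13 ran from 46.6 to 56.5 CPM with a median of 49.4, which overlapped the control libraries, at a log2 fold change of -0.08 ± 0.05.

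CDH2 was lower with all 3 SPP1 guides and with 1 of the KDM1A guides. It had 312 and 332 CPM with SPP1 guide 1, 248 and 265 CPM with guide 2 and 255 and 234 CPM with guide 3, against 440 and 470 CPM with control guide 1 and 412 and 411 CPM with control guide 2. No SPP1 library overlapped a control library, and the log2 fold change was -0.66 ± 0.14 (SE) for the group, a 1.58-fold lower level. By guide it was -0.43 ± 0.05, -0.75 ± 0.05 and -0.82 ± 0.05 for guides 1, 2 and 3, so CDH2 was least reduced with the guide that left the least SPP1 mRNA.

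For KDM1A the guides parted on CDH2. It had 437 and 446 CPM with KDM1A guide 2, within the control range, and 256 and 256 CPM with guide 3, below every control library. The log2 fold changes against control were 0.03 ± 0.05 and -0.76 ± 0.05 (SE), and the group value of -0.31 ± 0.16 averages these unlike guides. With CDKN1A, CDH2 had 346 and 337 CPM with guide 1 and 409 and 407 CPM with guide 2, at log2 fold changes of -0.34 ± 0.05 and -0.09 ± 0.05.

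CDH6, K-cadherin, a type II cadherin known from kidney and neural crest, showed the largest log2 fold change of the set, with SPP1 guides. It had 38.6 and 41.6 CPM with SPP1 guide 1, 51.3 and 42.9 CPM with guide 2 and 40.6 and 34.6 CPM with guide 3, against 78.7 and 87.1 CPM with control guide 1 and 71.2 and 72.0 CPM with control guide 2. Every SPP1 library was below every control library, and the log2 fold change of the group was -0.89 ± 0.12 (SE), a 1.86-fold lower level. The guides gave -0.94 ± 0.08, -0.71 ± 0.08 and -1.03 ± 0.08.

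CDH6 was also below every control library in the other 2 knockdowns. With KDM1A it had 67.0 and 68.8 CPM with guide 2 and 48.5 and 45.7 CPM with guide 3, at log2 fold changes of -0.18 ± 0.08 and -0.71 ± 0.08 (SE). With CDKN1A it had 53.6 and 58.2 CPM with guide 1 and 66.1 and 68.0 CPM with guide 2, at -0.46 ± 0.08 and -0.20 ± 0.08. In both, the lower pair of libraries came with the guide that left less of its target mRNA, as for CDH2 in these 2 knockdowns. The SPP1 guides did not follow that order. CDH2 was least reduced with SPP1 guide 1, which left the least SPP1 mRNA, and CDH6 was most reduced with guide 3. CDH13 was nearly equal between the guides of CDKN1A and between those of KDM1A. A relation to the amount of target mRNA was not tested.

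**Figure D1:**
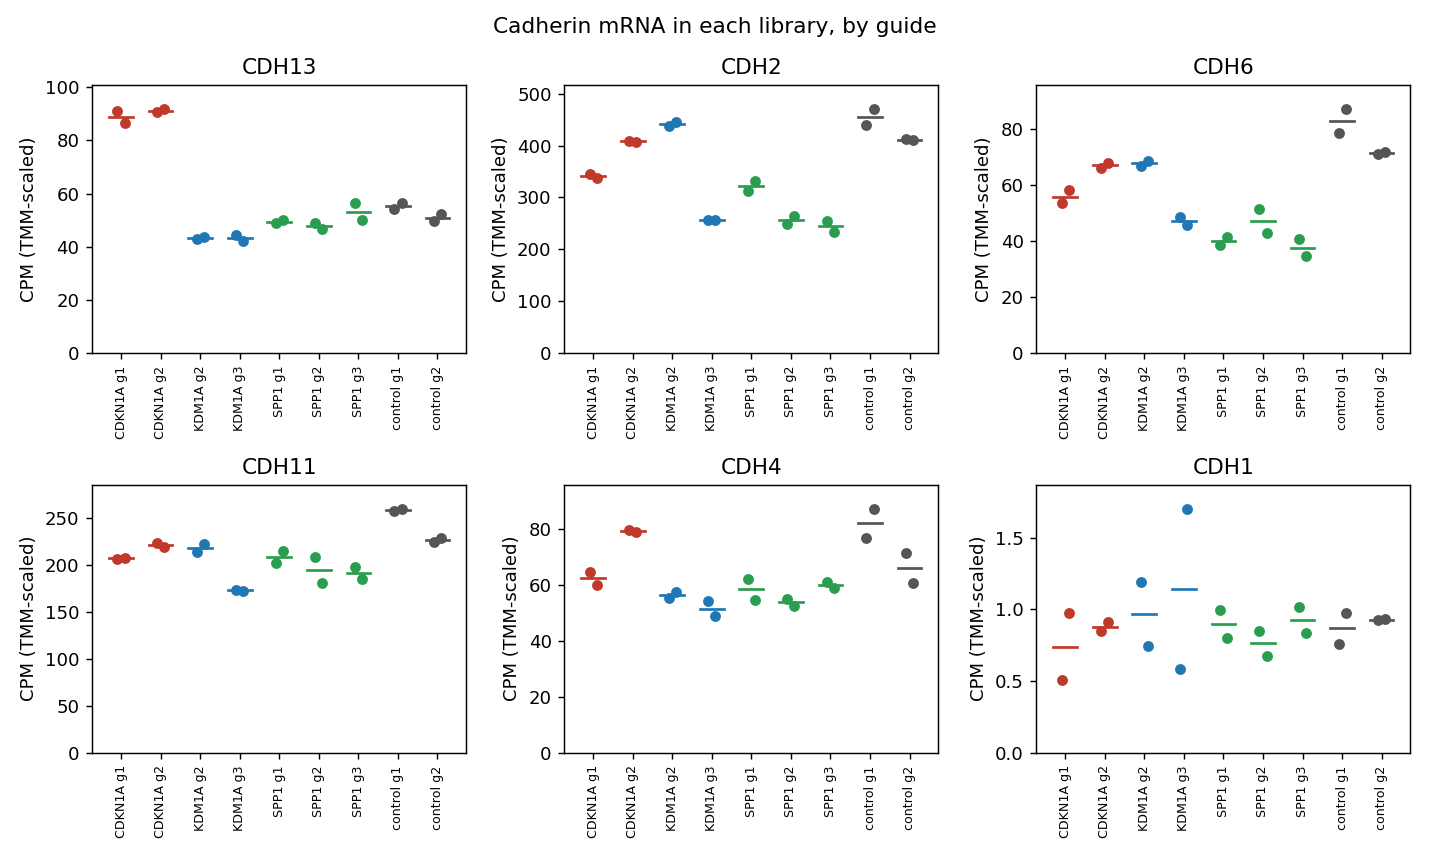
Level of 6 cadherin genes in each library, in TMM-scaled CPM from 0, by guide; each point is a library, the line is the mean of the guide's 2 libraries, and g1 to g3 are guides. CDH13 is near 90.0 CPM with CDKN1A guides and at 49.5 to 56.4 CPM in control libraries, and CDH2 and CDH6 are lowest with SPP1 guides and KDM1A guide 3.

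CDH11, a type II cadherin of mesenchymal cells, was below every control library in all 3 knockdowns. It ran from 181 to 215 CPM in SPP1 libraries (median 200) and had 214 and 223 CPM with KDM1A guide 2 and 174 and 173 CPM with guide 3, against 225 to 260 CPM in control libraries. CDKN1A libraries were at 207 to 224 CPM, close under the lowest control library, and the log2 fold changes were -0.18 ± 0.08 for CDKN1A, -0.31 ± 0.08 for KDM1A and -0.29 ± 0.07 for SPP1 (SE).

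CDH4, R-cadherin, a type I cadherin first known from retina, had 55.3 and 57.6 CPM with KDM1A guide 2 and 54.2 and 48.9 CPM with guide 3, against 77.1 and 87.3 CPM with control guide 1 and 71.5 and 60.9 CPM with control guide 2. The KDM1A libraries lay below all control libraries, and the log2 fold change of -0.46 ± 0.10 (SE) was the largest of the 6 tested cadherins with KDM1A guides. The 6 SPP1 libraries (52.5 to 62.2 CPM, median 57.1) overlapped the lowest control library, at -0.37 ± 0.09. CDKN1A libraries (60.2 to 79.7 CPM) lay within and just under the control range.

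CDH1 was at 0.505 to 0.973 CPM in CDKN1A, 0.582 to 1.7 in KDM1A, 0.675 to 1.02 in SPP1 and 0.76 to 0.975 in control libraries. All groups overlapped, so no difference in CDH1 was detectable at this depth. CDH15 was at 0.377 to 0.554 CPM in KDM1A libraries, which are 6.31 to 7.69 counts, and at 0.198 to 0.311 CPM, 2.57 to 3.61 counts, in control libraries. These did not overlap, but rest on few counts, and SPP1 libraries ran across both at 0.167 to 0.595 CPM. CDKN1A libraries, at 0.0706 to 0.195 CPM, lay below every control library, on 1.14 to 3.38 counts. CDH10 had 1.01 to 6.07 counts per library, with overlap between all groups.

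Calls are adjusted p-values below 0.05 over the 13527 genes tested, and those of these cadherins are given only as counts because their levels led to their choice. With CDKN1A knockdown 1 of 6 was called, CDH13, higher, where 2.00% of all genes were called (1.09% higher, 0.917% lower). With KDM1A knockdown 4 of 6 were called, all lower (CDH4, CDH6, CDH11 and CDH13), where 9.05% of all genes were called (5.33% higher, 3.72% lower). NES, the summed neural markers and COL3A1 were above every control library in the same KDM1A libraries, and their part in these calls was not tested. With SPP1 knockdown 4 of 6 were called, all lower (CDH2, CDH4, CDH6 and CDH11), where 5.46% of all genes were called (2.40% higher, 3.06% lower). COL3A1 was above every control library in the SPP1 libraries as well, and its part in the SPP1 calls was not tested either. The median log2 fold change of the 6 was -0.167, -0.313 and -0.331 for CDKN1A, KDM1A and SPP1, beside -0.004, -0.011 and 0.004 over all genes tested. The 3 comparisons share the same control libraries, so a like direction in them is no independent repeat.

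The number of calls depended on control guide 1, for these cadherins and over all genes. In control guide 2 libraries 5 of the 6 tested cadherins were lower than in control guide 1 libraries, by log2 values from -0.12 for CDH13 to -0.31 for CDH4, and none of the 6 was called, where 1.34% of all genes were. Without control guide 1 no cadherin was called with KDM1A guides, where 3.01% of all genes were, nor with SPP1 guides, where 0.0505% were. CDH13 was still called with CDKN1A guides, where 0.303% of all genes were.

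With KDM1A and SPP1 guides the fold changes of the 6 kept their direction without control guide 1, and with CDKN1A guides CDH4, which was not called, turned to 0.10 beside -0.07 with all control libraries. With SPP1 guides CDH6 was at -0.79 and CDH2 at -0.59 on the log2 scale without control guide 1, CDH4 at -0.21 and CDH11 at -0.20. With KDM1A guides CDH6 was at -0.32, CDH4 at -0.30, CDH2 at -0.24, CDH13 at -0.23 and CDH11 at -0.21. Of the called values, that of CDH4 moved by over 1.5 times in both of these knockdowns.

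Leaving out single libraries moved the counts too. Without replicate 1 or 2 of control guide 1, 2 and 2 cadherins were called with KDM1A guides, where 6.06% and 5.66% of all genes were. In the same fits 2 and 1 were called with SPP1 guides, where 2.66% and 1.34% of all genes were. Without replicate 1 or 2 of KDM1A guide 3, 2 and 2 were called (7.78% and 7.59% of all genes), and without the whole guide 1 was (8.14%). For SPP1, 2 were called without replicate 2 of guide 2 (3.29% of all genes), 1 without the whole of guide 2 (1.99%) and 2 without guide 3 (3.21%).

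Taken guide by guide against all control libraries, with spread from the 2 libraries of each guide, 4 of 6 were called with CDKN1A guide 1, where 4.69% of all genes were, and 1 of 6 with guide 2, where 6.22% were. KDM1A guide 2 gave 2 calls (CDH4 and CDH13) at 14.1% of all genes, and guide 3 gave 5 at 11.5%. Each SPP1 guide gave the calls CDH2, CDH4, CDH6 and CDH11, where 4.58%, 10.6% and 10.5% of all genes were called with guides 1, 2 and 3. The calls that all guides of a target share are thus CDH13, higher, for CDKN1A, CDH13 and CDH4, lower, for KDM1A, and CDH2, CDH4, CDH6 and CDH11, lower, for SPP1. All guides were set against the same control libraries, so a shared call is no independent repeat. The spread in this fit leaves out the difference between the control guides. For CDH4 that difference was -0.31 ± 0.09, beside -0.30 ± 0.08 with SPP1 guide 3 (SE).

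Between guides of 1 target, CDH2 was called in 4 of the 5 comparisons. KDM1A guide 3 against guide 2 gave log2 values of -0.79 ± 0.06 for CDH2, -0.53 ± 0.09 for CDH6 and -0.33 ± 0.06 for CDH11 (SE), 3 calls where 6.15% of all genes were called, and 0.00 ± 0.07 for CDH13. CDKN1A guide 2 against guide 1 gave 0.26 ± 0.06 for CDH2, the 1 call where 1.28% of all genes were called, and 0.35 ± 0.09 for CDH4 and 0.26 ± 0.09 for CDH6, which were not called. CDH2 was also the 1 call of SPP1 guide 2 against guide 1, at -0.33 ± 0.06 where 2.40% were called, and of guide 3 against guide 1, at -0.40 ± 0.06 where 2.80% were called. SPP1 guides 3 and 2 gave no call among the 6, where 0.214% of all genes were called, with -0.32 ± 0.10 for CDH6 and -0.07 ± 0.06 for CDH2.

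**Figure D2:**
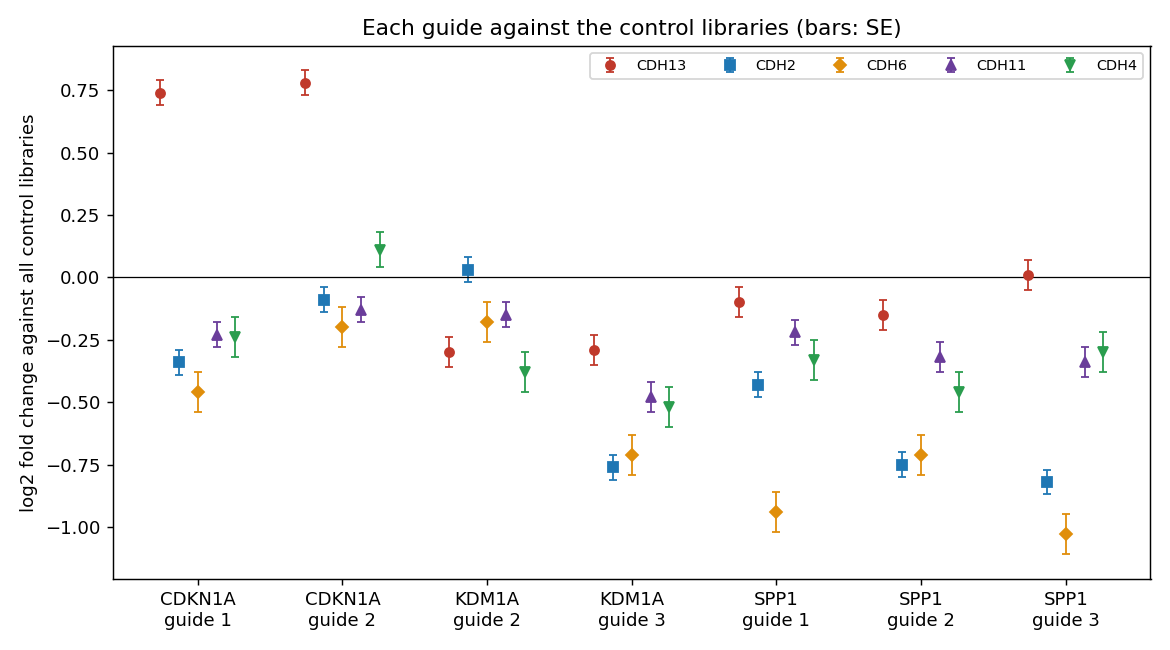
Log2 fold change of 5 cadherin genes with each knockdown guide against the 4 control libraries (edgeR, 1 coefficient per guide); points are estimates and bars are SE, and the horizontal line marks no difference. CDH13 is at 0.74 and 0.78 with CDKN1A guides and CDH2 at 0.03 and -0.76 with KDM1A guides 2 and 3.

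The division of each gene's counts among transcripts was not used to choose the genes and was tested. It was tested for CDH6, CDH11 and CDH13, which had at least 50 counts in every library and at least 2 transcripts with 5% of the counts. These tests permute single libraries, although each guide gave 2 of them. Their p-values therefore do not measure the spread between guides. CDH2 was counted on CDH2-201 (99.4 to 100% of a library's counts), and CDH4 on CDH4-203 (90.5 to 100%). For CDH6, CDH6-201 held 58.6 to 70.2% of the counts and CDH6-205, without the last coding exon of CDH6-201, 24.3 to 34.6%. Scaled for length, CDH6-205 was the more abundant form, at 40.5 to 56.4% of the gene's TPM against 27.1 to 38.0% for CDH6-201. Unspliced CDH6 RNA cannot be told apart from CDH6-205 here, since the bases of its own are intronic in CDH6-201.

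The split of CDH6 stayed within the spread of the libraries. CDH6-201 held 66.3 ± 2.74% of the gene's counts in CDKN1A, 65.9 ± 2.24% in KDM1A (SD, n = 4 each), 63.9 ± 3.59% in SPP1 (n = 6) and 67.0 ± 2.76% in control libraries (n = 4). Two-sided exact permutation tests gave p = 0.743, 0.6 and 0.21 for the 3 knockdowns. For CDH11, CDH11-212 held 39.9 ± 2.37%, 40.2 ± 1.17% and 40.1 ± 1.29% with CDKN1A, KDM1A and SPP1 guides, and 39.7 ± 1.79% in control libraries, with exact p = 0.943, 0.657 and 0.648.

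For CDH13 both main transcripts were higher with CDKN1A guides. CDH13-201 had 648 to 785 counts in CDKN1A libraries and 308 to 410 counts in control libraries, and CDH13-209 had 513 to 581 and 281 to 302 counts. The share of CDH13-201 was 53.6 ± 1.18% in CDKN1A and 46.6 ± 2.97% in control libraries (SD, n = 4 each), without overlap. The two-sided exact permutation p was 0.0286, the smallest that 4 against 4 libraries allow (n = 4 each). Over the 9 share tests that smallest p becomes 0.257 after Benjamini-Hochberg adjustment, so with these numbers of libraries 1 such share alone could not pass the threshold, and the test does not settle the difference. As a share of the gene's TPM, CDH13-201 was at 65.0 ± 3.89% in CDKN1A and 49.5 ± 5.22% in control libraries, 15.5 percentage points apart and again without overlap, with the same exact p and adjusted p. With KDM1A and SPP1 guides the share of the counts was 49.7 ± 2.52% (n = 4) and 46.2 ± 7.74% (n = 6), with exact p = 0.143 and 0.943. The CDH13-209 share was not lower with CDKN1A guides, at 39.9 to 44.2% against 37.0 to 41.6% in control libraries. CDH13-202, another protein-coding form, had 0.000426 to 37.4 counts in CDKN1A and 40.4 to 87.5 counts in control libraries. Whether counts were assigned differently between CDH13-201 and CDH13-202 was not tested.

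**Figure D3:**
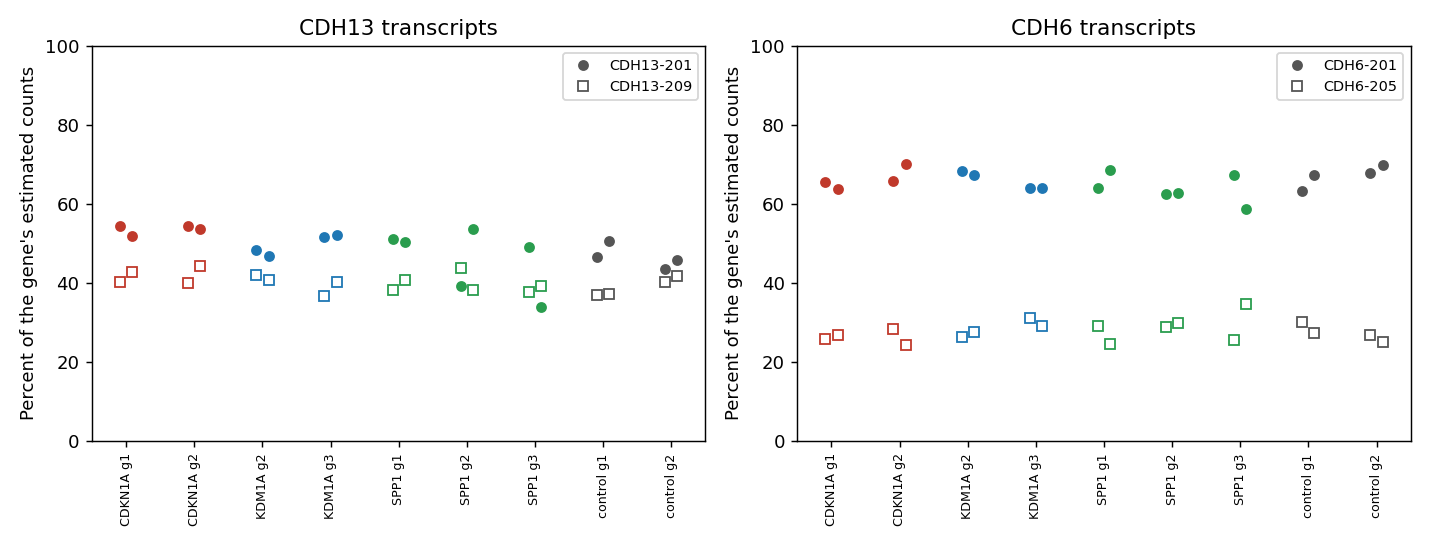
Percent of the estimated counts of CDH13 (left) and CDH6 (right) on their 2 main transcripts in each library, by guide (g1 to g3); filled circles are CDH13-201 and CDH6-201, open squares CDH13-209 and CDH6-205. CDH13-201 is at 51.9 to 54.4% with CDKN1A guides and 43.5 to 50.6% in control libraries. The CDH13-209 shares of these 2 groups overlap, and the CDH6 shares overlap in all groups.

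Of the cytoplasmic partners, plakoglobin mRNA rose with KDM1A guides, and alpha-, beta- and p120-catenin mRNA passed the test in no knockdown. Of 14 catenins and junction adaptors 10 were tested, and 0, 1 and 1 were called with CDKN1A, KDM1A and SPP1 guides. Of all genes tested, 2.00%, 9.05% and 5.46% were called. List medians were 0.036, 0.048 and 0.039, beside -0.004, -0.011 and 0.004 over all genes tested. These medians of all genes stand beside the lists below too. JUP, which encodes plakoglobin (gamma-catenin), a partner of cadherin tails in adherens junctions and desmosomes, rose in KDM1A libraries to 5.59 to 10.8 CPM, against 1.45 to 2.23 CPM in control libraries. The log2 fold change was 2.19 ± 0.29 (SE), 4.57-fold (edgeR quasi-likelihood F test, adjusted p = 7.35e-05), with all 4 KDM1A libraries above every control library, and 2.58 ± 0.17 and 1.67 ± 0.18 with guides 2 and 3. JUP was also higher with CDKN1A guide 1, at 0.95 ± 0.19 (SE, edgeR, adjusted p = 0.00788). It was at -0.19 ± 0.22 with CDKN1A guide 2, and the CDKN1A group was not called (0.51 ± 0.31).

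The other catenins of the complex differed little between the groups. In KDM1A libraries beta-catenin (CTNNB1) was at 341 ± 15.1 CPM and 347 ± 3.12 CPM in control libraries, alpha-catenin (CTNNA1) at 465 ± 10.2 and 461 ± 22.9 CPM, and p120-catenin (CTNND1) at 273 ± 5.42 and 266 ± 9.89 CPM (SD, n = 4 each). These 3 had log2 fold changes between -0.03 and 0.07 over the 3 knockdowns. With SPP1 guides LIMA1, an actin-binding protein of the cadherin complex, was called at 0.20 ± 0.06 (SE, edgeR, adjusted p = 0.0479), a call lost in 18 of 22 alternatives. With CDKN1A guides the smallest p of the list was that of vinculin (VCL), at -0.20 ± 0.05 (adjusted p = 0.0622).

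**Figure D4:**
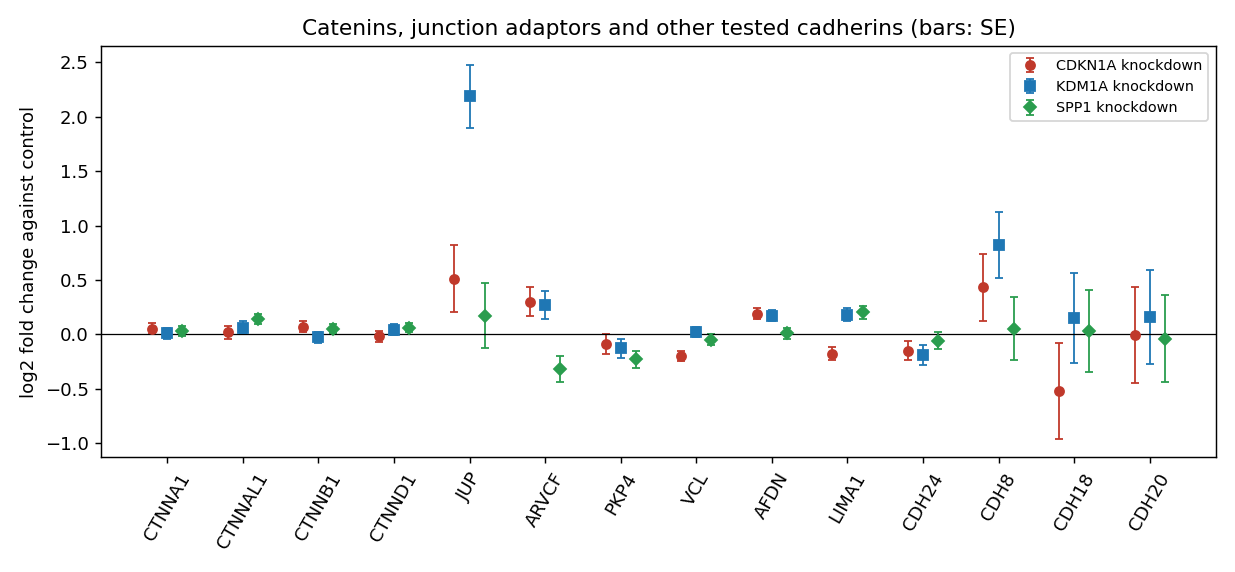
Log2 fold change against control for the 10 tested catenins and junction adaptors and 4 other tested cadherins in the 3 knockdowns (edgeR, 1 coefficient per group); bars are SE. JUP with KDM1A guides is at 2.19, and CTNNA1, CTNNB1 and CTNND1 lie between -0.03 and 0.07.

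Of 15 other cadherins, 4 were tested, CDH8, CDH18, CDH20 and CDH24, with list medians of -0.078, 0.159 and -0.003. None was called in the 3 knockdowns, where 2.00%, 9.05% and 5.46% of all genes were. CDH24, a type II cadherin, was at 40.1 ± 1.67 CPM in CDKN1A, 39.0 ± 4.58 in KDM1A, 42.6 ± 5.27 in SPP1 (n = 6) and 44.4 ± 2.86 in control libraries (SD, n = 4 elsewhere). Its log2 fold changes were -0.15 ± 0.09, -0.19 ± 0.09 and -0.06 ± 0.08 (SE). CDH8, a type II cadherin known from neurons, was at 2.14 to 3.56 CPM in KDM1A and 0.793 to 2.51 CPM in control libraries, at 0.82 ± 0.30 (edgeR, adjusted p = 0.0978). Whether the 8 chosen genes differ from these 4 was not tested.

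Of 28 protocadherin relatives outside the clusters, with FAT, DCHS and CELSR genes, 13 were tested. With CDKN1A guides 1 rose (PCDH18), where 2.00% of all genes were called. With KDM1A guides 1 rose (PCDH18) and 1 fell (FAT3), where 9.05% were called. With SPP1 guides 1 fell (PCDH10), where 5.46% were called. List medians were -0.013, 0.118 and -0.098. PCDH10, a protocadherin known from the nervous system, was at 331 ± 41.4 CPM in SPP1 (n = 6) and 497 ± 15.6 CPM in control libraries (n = 4, SD). Its log2 fold change was -0.58 ± 0.12 (SE, edgeR, adjusted p = 0.0108), with all 6 SPP1 libraries below every control library. Without control guide 1 its adjusted p was 0.137, and without SPP1 guide 2 it was 0.0581. The call was lost in 3 of 22 alternatives, at adjusted p up to 0.285.

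FAT3, a giant cadherin of planar polarity, was at 5.89 ± 0.804 CPM in KDM1A and 10.3 ± 1.86 CPM in control libraries (SD, n = 4 each), at a log2 fold change of -0.80 ± 0.12 (SE, edgeR, adjusted p = 3.70e-04). With an effective-length offset the FAT3 value was -0.49 and its adjusted p 0.314. PCDH18 was called at 0.44 ± 0.11 with CDKN1A guides (adjusted p = 0.0489) and 0.42 ± 0.11 with KDM1A guides (adjusted p = 0.0229, edgeR), calls lost in 15 and 8 of 19 alternatives.

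Nectins, immunoglobulin-type adhesion molecules that act beside cadherins at junctions, gave 1 call among 5 tested. It came with KDM1A guides, where 9.05% of all genes were called. List medians were 0.043, -0.077 and -0.233 for CDKN1A, KDM1A and SPP1. NECTIN4 was at 0.413 ± 0.184 CPM in KDM1A and 0.989 ± 0.151 CPM in control libraries (SD, n = 4 each), a log2 fold change of -1.24 ± 0.30 (SE, edgeR, adjusted p = 0.0123) that rests on low counts. Without KDM1A guide 3 it was -0.82 (adjusted p = 0.197), without replicate 2 of that guide -0.99 (adjusted p = 0.0622), and without control guide 2 -1.05 (adjusted p = 0.1). The smallest p of the list was that of NECTIN2 with CDKN1A guides (-0.19 ± 0.07, adjusted p = 0.153) and that of PVR with SPP1 guides (-0.27 ± 0.08, adjusted p = 0.0648).

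Of 12 transcription factors known for repressing E-cadherin or for the switch between CDH1 and CDH2, 8 were tested, with list medians of 0.069, -0.06 and -0.004. None was called with CDKN1A guides. With KDM1A and SPP1 guides 1 each was called, where 9.05% and 5.46% of all genes were. SNAI1, which encodes the repressor Snail, rose with KDM1A guides to 9.63 ± 3.51 CPM, against 4.6 ± 0.559 CPM in control libraries (SD, n = 4 each), a log2 fold change of 1.07 ± 0.26 (SE, edgeR, adjusted p = 0.0127). It was 1.46 ± 0.17 with guide 2, at which CDH2 was at control level, and 0.54 ± 0.18 with guide 3. Without KDM1A guide 2 the SNAI1 value was 0.54 (adjusted p = 0.294), without replicate 2 of that guide 0.86 (adjusted p = 0.0586), and without control guide 1 it was 0.98 (adjusted p = 0.16).

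TCF4 was called lower with SPP1 guides, at -0.31 ± 0.09 (SE, edgeR, adjusted p = 0.0446), a call lost in 13 of 22 alternatives. SNAI2, the Slug repressor, was above every control library in all 4 CDKN1A and all 4 KDM1A libraries, at 0.60 ± 0.17 and 0.50 ± 0.17 (SE, edgeR, adjusted p = 0.0716 and 0.0702), and missed the threshold in both. Control guide 2 against control guide 1 gave 0.59 ± 0.17 for SNAI2 (edgeR, adjusted p = 0.113), and SPP1 against control gave 0.46 ± 0.16 (adjusted p = 0.0929).

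Among 10 tested proteases that mature, shed or cleave cadherins, 1 was called, with KDM1A guides, where 9.05% of all genes were. List medians were 0.006, 0.065 and 0.044. ADAM15, a membrane metalloprotease, was at 80.4 ± 2.6 CPM in KDM1A and 67.3 ± 1.15 CPM in control libraries (SD, n = 4 each), a log2 fold change of 0.26 ± 0.06 (SE, edgeR, adjusted p = 0.00612). Without control guide 1 it was 0.24 (adjusted p = 0.0922). The call was lost in 2 of 19 alternatives, at adjusted p up to 0.105. ADAM10, the main sheddase of CDH2, gave 0.15 ± 0.06, 0.04 ± 0.06 and 0.07 ± 0.05 and was not called, nor was the proprotein convertase FURIN (-0.20 ± 0.08, -0.07 ± 0.08 and -0.21 ± 0.08).

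Among 8 tested receptors and ligands of CDH13 and CDH2, the list medians were 0.016, 0.026 and -0.037. With KDM1A guides 1 was called higher and 1 lower, where 9.05% of all genes were called. With SPP1 guides 1 was called lower, where 5.46% were called, and with CDKN1A guides none was. PDGFRB was called with KDM1A guides, higher (0.51 ± 0.15 SE, edgeR, adjusted p = 0.0334), a call lost in 9 of 19 alternatives. GPC1, which encodes the heparan sulfate proteoglycan glypican-1, was called lower with SPP1 guides at 370 ± 14.7 CPM (n = 6), against 463 ± 11.6 CPM in control libraries (n = 4, SD), with a log2 fold change of -0.32 ± 0.06 (SE, edgeR, adjusted p = 0.00622), and of -0.33 without control guide 1 (adjusted p = 0.0919). The SPP1 call of GPC1 was lost in 2 of 22 alternatives, at adjusted p up to 0.258. With KDM1A guides GPC1 was called at -0.22 ± 0.07 (adjusted p = 0.0442), and 15 of 19 alternatives lost that call.

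The genes whose pattern over the 18 libraries was most like that of a cadherin were found by the root mean square difference of centred log2 CPM. For CDH13, whose own values deviated by 0.385 from their mean on this scale, these were TP53INP1 at 0.15, S1PR3 at 0.17 and SPATA18 at 0.176. TP53INP1 was at a log2 fold change of 0.53 ± 0.10 with CDKN1A guides and -0.46 ± 0.10 with KDM1A guides (SE), and S1PR3 at 0.65 ± 0.13 and -0.24 ± 0.13. SPATA18 was at 0.71 ± 0.11 and -0.31 ± 0.11. With SPP1 guides TP53INP1 was at -0.31 ± 0.09, S1PR3 at -0.02 ± 0.12 and SPATA18 at -0.36 ± 0.10, beside -0.08 ± 0.05 for CDH13. For TP53INP1 and SPATA18 all 6 SPP1 libraries were below every control library, unlike for CDH13. For CDH2, with its own deviation of 0.34, they were NUAK1 at 0.067, RFLNB at 0.102 and PCDH10 at 0.109, so NUAK1 followed CDH2 closely, the KDM1A guides included.

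CDH6 deviated by 0.383, and NUAK1 at 0.172, TSC22D3 at 0.182 and CDH2 at 0.183 were nearest. CDH2 and CDH6 were thus nearest to each other among the tested cadherins, before CDH11 at 0.218 from CDH2 and 0.27 from CDH6. CDH13 lay farther from CDH2, at 0.443, and from CDH6, at 0.474, than its own deviation. These distances describe the 18 libraries and carry no test, and the libraries share guides and controls.

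**Figure D5:**
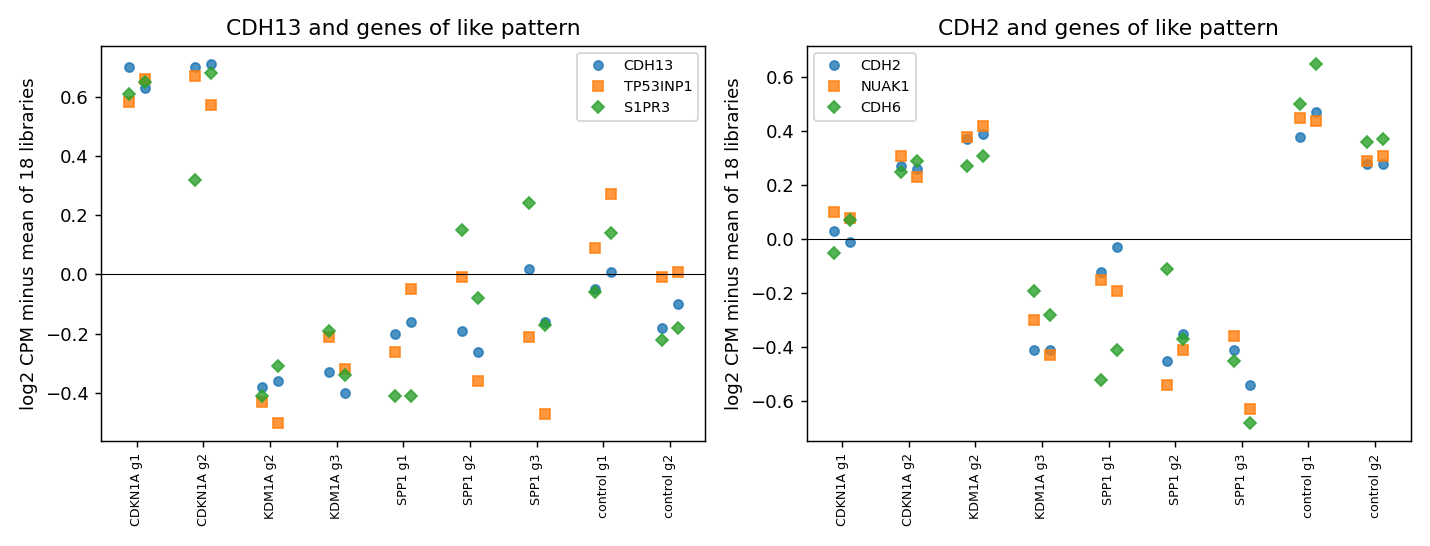
Centred log2 CPM (value minus the mean of 18 libraries) in each library, by guide (g1 to g3), for CDH13 with TP53INP1 and S1PR3 (left) and for CDH2 with NUAK1 and CDH6 (right). CDH13 is highest with CDKN1A guides, at 0.63 to 0.71, and CDH2 and NUAK1 part between KDM1A guides 2 and 3, where CDH2 is at 0.37 and 0.39 against -0.41 and -0.41.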

How the data were processed

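Poly(A) RNA-seq of 18 hiF-T libraries was analysed. The authors deposited 1 table per library with estimated counts and TPM per Ensembl transcript, made with kallisto on GRCh38 (hg38), per the submitters' processing notes (version not stated there). Of 188753 transcripts, 169797 (89.96%) matched GENCODE 29, for 35579 genes; the 18956 unmatched held 2.494 to 2.618% of a library's counts and were left out.

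Estimated counts were summed per gene, rounded, filtered with filterByExpr by group at a count minimum of 10 and scaled by TMM. edgeR 4.0.16 (R 4.3.3) fitted quasi-likelihood models with 1 coefficient per group, and per guide, to all libraries, with Benjamini-Hochberg adjustment over 13527 genes. Fold changes are those of the fit; CPM are TMM-scaled; deposited TPM served for levels between genes. DESeq2 1.42.0 and other alternatives stand in the closing section. Transcript shares had exact permutation tests (scipy 1.17.1). The fit was tested on simulated data. The sources state no design with a block, so none was used.

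The 8 cadherins, the gene lists and the markers were chosen with earlier results of these data known. Named list genes are those called, or else the 1 of smallest p; the targeted genes and the 3 genes of nearest pattern to CDH2, CDH6 and CDH13 are named too. Counting without stated strand cannot part a gene from an antisense transcript. The dispersion gave a biological coefficient of variation of 9.32% by group and 6.92% by guide, so libraries of different guides are not equivalent replicates.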

Additional observations from a re-analysis of the deposited data

Results flagged for a closer look

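In SPP1 guide 3 replicate 1, CDH13 was at 56.5 CPM, apart from the other 5 SPP1 libraries (46.6 to 50.1 CPM), with a gap to the next library of 0.648 of the group's whole range. It was the 1 sample that stood apart in 24 groups looked at, and chance alone puts about 1 sample apart in every 20 groups.

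Guides of 1 target differed for CDH2 in each knockdown. The log2 difference was 0.26 for CDKN1A guide 2 against guide 1, -0.79 for KDM1A guide 3 against guide 2, -0.33 for SPP1 guide 2 against guide 1 and -0.4 for SPP1 guide 3 against guide 1. KDM1A guide 3 against guide 2 also differed for CDH6 (-0.53) and CDH11 (-0.33). All passed the adjusted threshold of the fit with a coefficient per guide, which compares 2 libraries with 2, and these genes were picked with the levels by guide in view.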

How the results depend on the processing

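CDH13 with CDKN1A guides kept its direction and its call in all 19 alternatives (log2 0.58 to 0.82), JUP with KDM1A guides likewise (1.67 to 2.58), and CDH6 with SPP1 guides in 20 of 22 (-0.99 to -0.78). The number of cadherins called, 1, 4 and 4 with CDKN1A, KDM1A and SPP1 guides, was 2 and 2 for CDKN1A and KDM1A with only the knockdown and control libraries fitted. It was 0 for KDM1A and 0 for SPP1 when the libraries of each guide were summed, and again without control guide 1. It was 2 for KDM1A with an effective-length offset, an alternative chosen after seeing the data, 1 without KDM1A guide 3, and, for SPP1, 1 without guide 2 and 2 without guide 3. With 1 library left out it ran from 2 to 4 for KDM1A and from 1 to 4 for SPP1. Fewer libraries and fewer degrees of freedom enter several of these fits; the cause of the lost calls was not tested. The replicate block left the counts at 1, 4 and 4; same-numbered libraries did not deviate together (correlations -0.117 to 0.0733, 0 of 36 pairs over 0.1), so the numbers do not pair samples.

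Directions turned for values near 0, and for CDH2 with KDM1A guides, where the guides were unlike. CDH2 was at -0.31 over both KDM1A guides and at 0.03 without guide 3, which gave -0.76 on its own. CDH4 with CDKN1A guides was 0.1 without control guide 1, 0.1 without CDKN1A guide 1, and -0.14 to 0.03 with 1 library left out. With 1 library left out, CDH1 ran from -0.26 to 0.03 with CDKN1A guides, from -0.1 to 0.43 with KDM1A guides and from -0.12 to 0.01 with SPP1 guides. It was 0.02 with CDKN1A guides under the effective-length offset, and 0.01 and 0.03 with SPP1 guides without control guide 2 and SPP1 guide 2. As a share of TPM, CDH11-212 was -0.298 percentage points in SPP1 minus control.

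Over all genes, 271, 1224 and 738 were called. DESeq2 called 553, 1390 and 968, the replicate block 172, 1112 and 606, the effective-length offset 71, 568 and 321, only the knockdown and control 588, 1112 and 390, summed libraries 1, 162 and 1, and fits without control guide 1 42, 417 and 7. Without 1 knockdown guide the counts were 127 and 44 for CDKN1A (without guides 1 and 2), 747 and 1132 for KDM1A (2 and 3) and 991, 268 and 433 for SPP1 (1, 2 and 3), and with 1 library left out 54 to 206, 774 to 1118 and 184 to 752. CDH1, CDH10 and CDH15 are limited by depth, and guides by 2 libraries each.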
